A study of Mus musculus with 6 samples.

Results

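The genes described here are 28 genes of cholesterol synthesis and of its control by SREBP2, measured by RNA sequencing in cultured mouse macrophages. They were taken as a list of symbols and matched to Ensembl identifiers of the deposited count table, and all 28 were found among its 55421 genes and passed the filter on low counts, which kept 13588 genes. The list holds 19 enzymes, all of the route from acetyl-CoA to cholesterol except Ggps1 of a side branch, 6 genes that control SREBP2 (Srebf2, Scap, Insig1, Insig2, Mbtps1 and Mbtps2), and Stard4, Tmem97 and Acss2, which are known SREBP2 targets outside the route.

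The cells were primary bone marrow-derived macrophages, grown in culture from marrow progenitors. There were 3 libraries from cells with both Tmem175 alleles floxed and 1 copy of Cre in the Lyz2 locus, labelled Tmem175-/- and called knockout here, and 3 libraries from wild type (WT) cells. The gene encodes an ion channel of the endosomal and lysosomal membrane. Lyz2 drives Cre in myeloid cells, and no library carries Cre or floxed alleles alone, so loss of Tmem175 cannot be told apart from effects of Cre, of its insertion or of genetic background. The libraries are described as wells, with no word on separate animals, so the p-values below reflect differences among wells that may be technical. The sources used here do not give the age of the mice or the culture medium.

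Cholesterol is built in the endoplasmic reticulum (ER) from acetyl-CoA by way of mevalonate, isoprenoid diphosphates, squalene and lanosterol. SREBP2, the product of Srebf2, is made as a membrane protein of the ER. When ER sterol is low, SCAP carries it to the Golgi, where the proteases encoded by Mbtps1 and Mbtps2 release its active part, which enters the nucleus and switches on the enzymes of the route. When sterol is high, the INSIG proteins hold SCAP in the ER. Liver X receptors (LXR), which bind oxidised sterols, control the opposite arm, the export of cholesterol from macrophages.

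SREBP2 binds promoters together with the factors NF-Y, which reads CCAAT boxes, and SP1, which reads GC boxes, so promoter windows of the genes were searched for these letters. RefSeq windows on GRCm38.p6, from 250 bases before to 50 bases after each start, were found for 24 of the 28 genes. Both strands were searched. The sterol regulatory element was taken as TCACNCCAC. Elements that differ from this spelling were not counted, so a gene without a match may still hold one. The GC box was searched as GGGCGG in the same windows. CACGTG was searched as the E-box, a site of basic helix-loop-helix factors. Where a gene has several windows, a match in any of them was counted. The CCAAT box was found in 20 of the 24 genes, or 83.3%, against 42.8% of the 9941 tested genes with a window. The GC box was found in 87.5% of them against 67.1%, the E-box in 20.8% against 11.7%, and the sterol regulatory element in 1 gene, Hmgcs1, or 4.17%, against 1.40%. These matches are letters in a window and do not show that a factor was bound.

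The 250 bases before the start are printed below for 5 genes that were all lowest in the same knockout library (replicate 1) and for Mbtps1, whose level varied least. Capitals mark a match to any of the 4 motifs in either direction, and no matches overlap in these windows. They lie at chr13:119690101-119690350 (Hmgcs1, plus strand), chr13:8885356-8885605 (Idi1, plus strand), chr8:64733579-64733828 (Msmo1, minus strand), chr5:28071162-28071411 (Insig1, plus strand), chr15:82147019-82147268 (Srebf2, plus strand) and chr8:119558762-119559011 (Mbtps1, minus strand). Hmgcs1 holds the sterol regulatory element, 137 bases before the start, and CCAAT boxes 237, 176 and 45 bases before it. Idi1 holds CCAAT boxes 45 and 14 bases before the start. Mbtps1 holds no CCAAT box in this window, and neither do Scap, Mbtps2 and Acat2 in theirs. The highest level was 1.07-fold the lowest for Mbtps1, 1.15-fold for Scap, 1.17-fold for Mbtps2 and 1.48-fold for Acat2. Ebp and Ggps1, at 1.13-fold and 1.12-fold, do hold CCAAT boxes.
Hmgcs1: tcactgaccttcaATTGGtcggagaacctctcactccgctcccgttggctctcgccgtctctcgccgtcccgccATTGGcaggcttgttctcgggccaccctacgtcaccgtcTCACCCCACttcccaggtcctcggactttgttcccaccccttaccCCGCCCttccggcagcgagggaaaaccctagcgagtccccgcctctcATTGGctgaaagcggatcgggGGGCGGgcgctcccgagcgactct
Idi1: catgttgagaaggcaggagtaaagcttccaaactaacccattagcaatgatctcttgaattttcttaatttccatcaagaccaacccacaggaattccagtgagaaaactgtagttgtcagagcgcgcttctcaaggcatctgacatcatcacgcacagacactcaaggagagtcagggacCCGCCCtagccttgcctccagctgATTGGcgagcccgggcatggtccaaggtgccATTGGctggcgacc
Msmo1: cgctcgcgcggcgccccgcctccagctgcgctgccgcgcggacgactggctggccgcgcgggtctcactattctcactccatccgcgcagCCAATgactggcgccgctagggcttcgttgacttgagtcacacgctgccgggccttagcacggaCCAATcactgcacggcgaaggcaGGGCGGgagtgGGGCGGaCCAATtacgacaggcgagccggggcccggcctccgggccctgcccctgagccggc
Insig1: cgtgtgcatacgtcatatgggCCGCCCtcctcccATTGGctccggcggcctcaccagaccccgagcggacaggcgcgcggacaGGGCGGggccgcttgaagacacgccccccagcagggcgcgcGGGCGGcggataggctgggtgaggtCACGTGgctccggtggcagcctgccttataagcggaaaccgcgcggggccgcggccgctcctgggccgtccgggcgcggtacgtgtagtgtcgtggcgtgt
Srebf2: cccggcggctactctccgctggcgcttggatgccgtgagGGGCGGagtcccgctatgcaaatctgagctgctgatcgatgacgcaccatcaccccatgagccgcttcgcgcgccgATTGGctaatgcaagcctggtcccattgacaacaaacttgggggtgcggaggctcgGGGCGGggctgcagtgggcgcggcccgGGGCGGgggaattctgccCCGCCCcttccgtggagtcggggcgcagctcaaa
Mbtps1: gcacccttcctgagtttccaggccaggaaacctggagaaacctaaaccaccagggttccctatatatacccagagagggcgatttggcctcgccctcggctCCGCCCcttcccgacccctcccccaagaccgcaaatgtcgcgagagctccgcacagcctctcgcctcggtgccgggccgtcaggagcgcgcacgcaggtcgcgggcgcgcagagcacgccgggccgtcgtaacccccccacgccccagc

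Total counts ranged from 25979430 to 31542741 in knockout and from 24179548 to 25916709 in WT libraries. Levels are given as CPM, counts scaled to a common library total, after TMM scaling, which corrects the totals for differences in composition. Tmem175 stood at 14.3, 13.2 and 12.1 CPM in knockout, against 32.8, 33.4 and 33.2 CPM in WT libraries, a difference that passed the test (adjusted p = 6.01e-05, edgeR). Lyz2, whose locus holds the Cre, averaged 24326 ± 1578 CPM in knockout and 45178 ± 4163 CPM in WT libraries (SD, n = 3 each; adjusted p = 0.00415, edgeR). Macrophage genes were abundant: all 10 markers passed the filter, and together they took 10746 to 11648 CPM in knockout and 10577 to 11709 CPM in WT libraries. Of 9 markers of T, B and NK cells, 5 passed the filter, with a sum of 2.86 to 4.75 CPM in knockout and 6.05 to 7.11 CPM in WT libraries. The 10 neutrophil markers summed to 709 to 764 CPM in knockout and 417 to 613 CPM in WT libraries. S100a9 and S100a8 made up most of that sum, averaging 294 and 174 CPM in knockout and 193 and 108 CPM in WT libraries. The log2 fold change of knockout over WT was positive for 8 of these markers and negative for 2, Mpo (-0.76) and Elane (-0.44), so the sum does not describe every marker. Haemoglobin gene Hbb-bs had a count of 0 in every library. In bulk RNA, fewer cells that express a gene and less of its RNA per cell cannot be told apart.

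Levels between genes were compared as CPM per kb of exon, with the union of all annotated exons as the length. By this measure the most abundant of the 28 genes were 2 control genes, Insig1 and Srebf2, and 2 enzymes, Mvd and Ebp. Insig1, which holds SCAP in the ER and is itself an SREBP2 target, averaged 25.1 ± 3.20 CPM per kb over the 6 libraries (SD, n = 6). Mvd, mevalonate diphosphate decarboxylase, averaged 24.9 ± 3.47 CPM per kb and Srebf2 averaged 23.4 ± 1.86 CPM per kb (SD, n = 6 each). Ebp, the sterol isomerase, followed at 21.9 ± 0.897 CPM per kb (SD, n = 6). The means of Insig1, Mvd and Srebf2 differed by less than their spread between libraries. Ebp lay below each of them by more than its own spread. Tmem97, a sterol-responsive ER protein, came next at 16.9 ± 1.66 CPM per kb (SD, n = 6).

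Among the mevalonate enzymes, Hmgcs1, the cytosolic HMG-CoA synthase, stood at 12.8 ± 1.47 CPM per kb, above the kinases Pmvk at 8.56 ± 0.915 and Mvk at 5.23 ± 0.437 CPM per kb (SD, n = 6 each). Acat2, the thiolase of the first step, stood at 3.66 ± 0.526 CPM per kb (SD, n = 6). After squalene, Msmo1, the methylsterol oxidase, at 12.9 ± 1.89, and Cyp51, the lanosterol demethylase, at 12.5 ± 1.78 CPM per kb did not differ beyond their spread (SD, n = 6 each). Sqle, the squalene epoxidase that limits flux into sterols, stood at 6.69 ± 0.928 and Dhcr7, the reductase of the last step, at 5.82 ± 0.625 CPM per kb (SD, n = 6 each).

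At the low end were Hsd17b7, the ketosteroid reductase, at 1.73 ± 0.322, Acss2, the cytosolic acetyl-CoA synthetase, at 1.33 ± 0.207, and Fdps, farnesyl diphosphate synthase, at 0.321 ± 0.0887 CPM per kb (SD, n = 6 each). The value of Fdps is uncertain, because 91.4% of its longest coding transcript had a near-identical match, at 95% identity or more over at least 100 bases, in 6 other annotated genes or pseudogenes. Of its exon bases, 26.7% are also shared with an overlapping gene on the same strand. The near-identical share was 65.6% for Acat2, mostly its paralogue Acat3, 54.7% for Fdft1, 38.5% for Tmem97, 33.3% for Idi1 and 27.3% for Ggps1. How reads with several matches were counted is not known here, so the levels of these genes are uncertain, and exons of Fdft1 also overlap Ctsb on the opposite strand over 18.3% of their bases. The order also depends on the length used: per kb of the longest coding transcript, Msmo1 had the highest level at 38.6 CPM per kb and Insig1 the fourth highest at 28.8 CPM per kb.

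**Figure D1:**
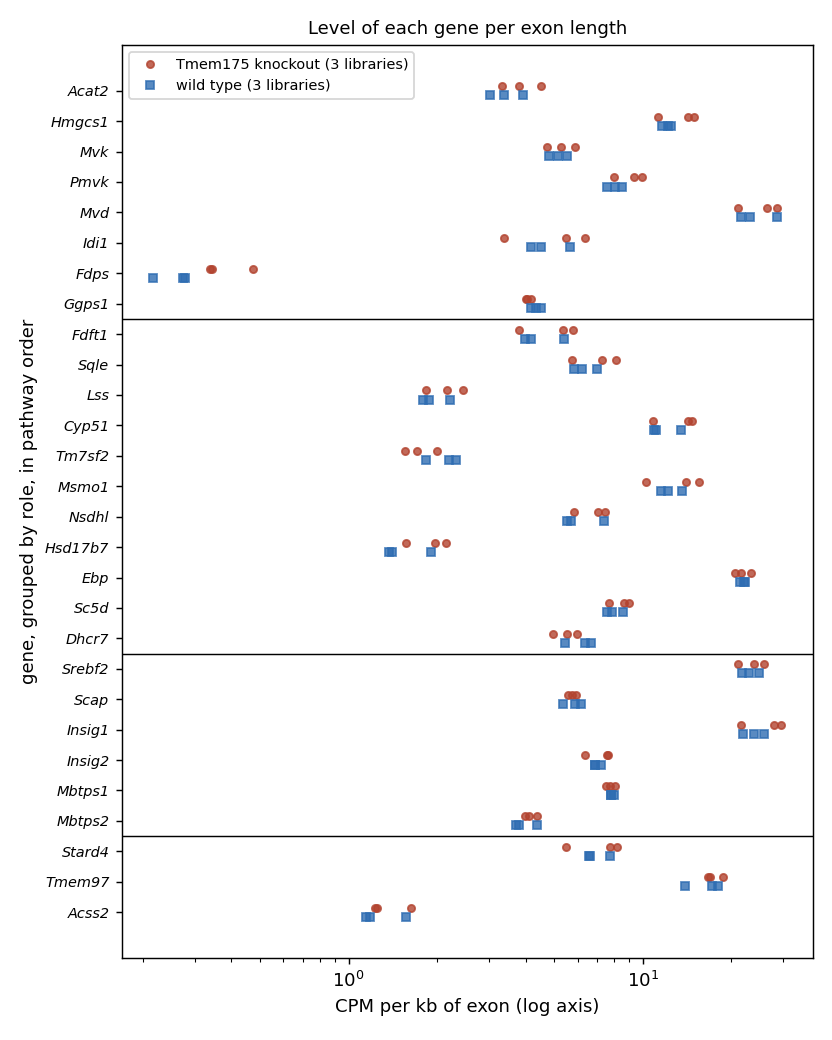
Level of each of the 28 genes in CPM per kb of exon on a log axis, with 1 point per library (circles, 3 knockout libraries; squares, 3 WT libraries), grouped by role and in pathway order. Fdps sits lowest at 0.321 CPM per kb on average and Insig1 highest at 25.1 CPM per kb, and knockout and WT points overlap for 26 of the 28 genes.

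The enzymes moved together between libraries of the same genotype. Idi1, the isopentenyl diphosphate isomerase, had the widest range of the 28 genes after the thinly counted Fdps, with its highest level 1.88-fold the lowest. It stood at 11.9, 22.3 and 19.2 CPM in knockout replicates 1, 2 and 3, against 14.7, 15.9 and 19.8 CPM in WT replicates 1, 2 and 3. Knockout replicate 1 was thus the lowest of all 6 libraries, while knockout replicates 2 and 3 and WT replicate 3 were the 3 highest. The same libraries stood high for Msmo1, at 63.2, 95.5 and 85.8 CPM in knockout and 71.1, 74.6 and 83.5 CPM in WT libraries. Fdft1, squalene synthase, which commits isoprenoids to sterol, had 16.1, 24.5 and 22.6 CPM in knockout and 16.8, 17.6 and 22.8 CPM in WT libraries.

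Sqle stood at 31.9, 45.0 and 40.2 CPM in knockout and at 34.4, 32.3 and 38.8 CPM in WT libraries. Cyp51 stood at 48.0, 62.9 and 64.7 CPM in knockout and at 48.2, 48.9 and 59.4 CPM in WT libraries. In both genes the libraries of 1 genotype lay farther apart than the means of the genotypes did. Hmgcs1 followed the order in knockout, at 51.8, 65.3 and 68.7 CPM, but not in WT libraries, at 53.5, 57.1 and 56.0 CPM. Mvd had 39.1, 53.3 and 49.3 CPM in knockout and 40.0, 43.1 and 53.2 CPM in WT libraries. Lss, lanosterol synthase, and Nsdhl and Sc5d, which act on the sterol ring, had knockout replicate 1 lowest and WT replicate 3 highest too, with highest-over-lowest ratios of 1.37, 1.34 and 1.19.

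Outside the route, Stard4, a carrier that moves sterol between membranes, showed the same order, at 30.6, 45.5 and 43.2 CPM in knockout and 36.8, 37.1 and 43.3 CPM in WT libraries. Tmem97 did not, at 23.3, 25.8 and 22.8 CPM in knockout and 23.6, 24.7 and 19.1 CPM in WT libraries, where WT replicate 3 was the lowest. Acss2 stood at 12.7, 16.5 and 12.5 CPM in knockout and 11.7, 12 and 15.9 CPM in WT libraries.

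Counted over the 28 genes, knockout replicate 1 was the lowest knockout library for 21 genes, or 75.0%, against 35.7% of the 13588 tested genes. WT replicate 3 was the highest WT library for 21 genes, again 75.0%, against 36.4% of all tested genes. Both orders held for 16 genes, or 57.1%, against 17.6% of all tested genes. The reverse of both orders held for 0 of the 28 genes, against 17.8% of all tested genes. These orders were chosen after the values had been seen, and no test was made of them. Of the 19 enzymes, 17 had knockout replicate 1 lowest, 14 had WT replicate 3 highest, and 13 had both. For the 11 enzymes from squalene to cholesterol these counts were 10, 10 and 9. For the 8 enzymes of mevalonate and isoprenoids they were 7, 4 and 4, and for the 6 control genes 3, 5 and 2. The CCAAT box was found in 12 of the 13 genes with both orders and a window, Acat2 being the exception. It was also found in 8 of the 11 other genes with a window. Whether it goes with these orders was not tested.

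As a mean over the 19 enzymes of log2 (CPM + 0.5) minus each gene's own mean, knockout replicates 1, 2 and 3 stood at -0.17, 0.176 and 0.122 and WT replicates 1, 2 and 3 at -0.13, -0.0793 and 0.082. Knockout replicate 2 was thus 0.346 above knockout replicate 1 on the log2 scale, or 1.27-fold, and WT replicate 3 was 0.212 above WT replicate 1, or 1.16-fold. The mean over all tested genes lay between -0.00793 and 0.0156 in every library, but TMM scaling by its design brings that mean near 0. The members' median range over the 6 libraries was 0.426 on the log2 scale, against 0.279 for all tested genes.

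**Figure D2:**
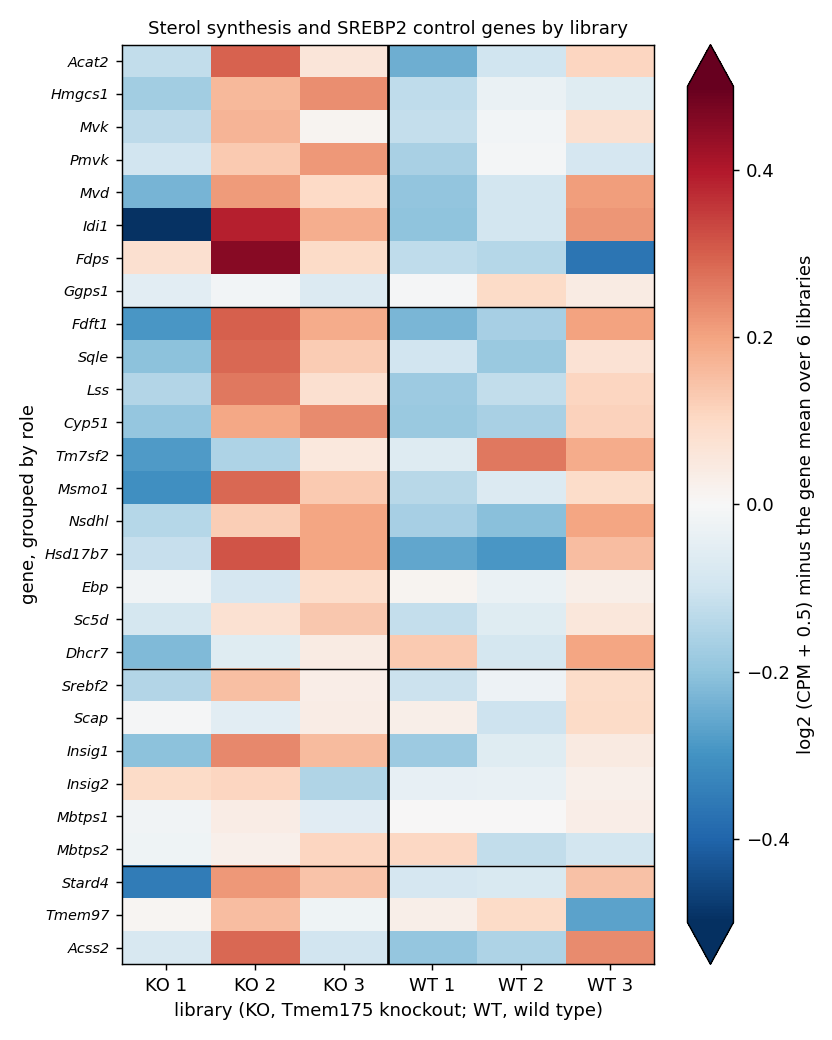
Log2 (CPM + 0.5) of each gene minus its mean over the 6 libraries, with genes in rows grouped by role and libraries in columns (KO, knockout, left; WT, right). Knockout replicates 2 and 3 and WT replicate 3 are above the gene's mean for 23 of the 28 genes each, and knockout replicate 1 for 3, WT replicate 1 for 6 and WT replicate 2 for 4 of them.

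Of the 6 control genes, Srebf2 and Insig1 had both orders, while WT replicate 3 was the highest WT library for 5 of them. Their highest-over-lowest ratios were 1.37 for Insig1, 1.23 for Srebf2, 1.20 for Insig2, 1.17 for Mbtps2, 1.15 for Scap and 1.07 for Mbtps1, with no clear break between the last 5. Srebf2 stood at 151, 186 and 172 CPM in knockout and at 156, 165 and 179 CPM in WT libraries, with knockout replicate 1 and WT replicate 1 the lowest of their groups. Insig1 had 66.9, 91.3 and 86.3 CPM in knockout and 68.0, 73.9 and 79.6 CPM in WT libraries, the same order. Both genes are known SREBP2 targets themselves.

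Insig2, which also retains SCAP but is not a known SREBP2 target, stood at 26.3, 26.5 and 22.1 CPM in knockout and at 23.88, 23.95 and 25.01 CPM in WT libraries. Here knockout replicate 3, not 1, was the lowest knockout library. Scap stood at 42.8, 41.4 and 44.1 CPM in knockout and at 43.9, 40.0 and 46.0 CPM in WT libraries, where the groups overlapped over a narrow range. Mbtps1, the protease that makes the first cut in SREBP2, ranged from 79.1 to 84.6 CPM in knockout and from 82.4 to 84.3 CPM in WT libraries, a highest level 1.07-fold the lowest and the narrowest range of the 28 genes. Mbtps2, the protease of the final cut, ranged from 40.4 to 44.1 CPM in knockout and from 37.6 to 44.1 CPM in WT libraries; 28.4% of its exon bases are shared with Yy2 on the same strand.

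Not every enzyme followed the common order. Ebp was nearly level, at 49.97, 47.7 and 53.8 CPM in knockout and 51.0, 49.4 and 51.5 CPM in WT libraries. Ggps1, which makes the geranylgeranyl diphosphate used to anchor small GTPases and so leaves the sterol route, stood at 19.1, 19.6 and 18.9 CPM in knockout and at 19.7, 21.2 and 20.4 CPM in WT libraries. Tm7sf2, a sterol reductase, had 6.85, 7.52 and 8.79 CPM in knockout and 8.06, 10.2 and 9.66 CPM in WT libraries, with WT replicate 2 the highest.

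Lists of related genes showed which neighbours of the route shared the order. Of 15 tested genes of fatty acid synthesis and desaturation, 9 had both orders (Acaca, Fasn, Scd2, Fads1, Fads2, Me1, Acsl3, Mid1ip1 and Slc25a1), or 60.0% against 17.6% of all tested genes. The reverse of both held for 2 of the 15 (Elovl5 and Lpin1), or 13.3% against 17.8%. Fasn, fatty acid synthase, stood at 63.8, 83.5 and 80.9 CPM in knockout and at 74.8, 71.7 and 87.9 CPM in WT libraries. Of 10 LXR and efflux genes, 5 had the reverse of both orders (Nr1h3, Rxra, Abca1, Mylip and Apoe), or 50% against 17.8% of all tested genes. Both orders held for 2 of the 10 (Rxrb and Lpcat3), or 20% against 17.6%. Mylip was nearly level in WT replicates 2 and 3, at 61.5 and 61.3 CPM. Nr1h3, which encodes LXR alpha, stood at 103, 66.0 and 75.7 CPM in knockout and at 102, 111 and 71.7 CPM in WT libraries. Abca1, the transporter that exports cholesterol, stood at 575, 431 and 450 CPM in knockout and at 554, 557 and 491 CPM in WT libraries. The libraries in which the sterol enzymes were high were thus those in which these 2 genes were low. Fasn, Nr1h3, Abca1 and the genes listed by order here and below were chosen after their values had been seen.

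In other arms of sterol handling, smaller shares of genes had both orders than in fatty acid synthesis. Both orders held for 3 of 17 genes of the isoprenoid branch, which uses farnesyl and geranylgeranyl diphosphate for protein prenylation, dolichol and ubiquinone (Pggt1b, Dhdds and Icmt, or 17.6%). They held for 4 of 13 genes of sterol-regulated degradation in the ER (Rnf145, Ufd1, Ube2g2 and Usp20, or 30.8%) and for 3 of 16 genes of sterol esterification and transport (Gramd1a, Stard3 and Cav1, or 18.8%). The reverse of both orders held for 5 of 17 isoprenoid branch genes (29.4%: Nus1, Dolk, Pdss1, Zmpste24 and Ptar1), for 23.1% of the degradation genes and for 5 of 16 esterification and transport genes (31.2%: Soat1, Nceh1, Lipa, Npc1 and Stard5), against 17.8% of all tested genes. The differences between these lists were not tested.

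Technical measures and markers of other cells were set beside this pattern, and their part in it was not tested. Knockout replicate 1 had the highest total count, 31542741, and WT replicate 3 the highest of its group, 25916709, so in knockout the library lowest in sterol enzymes was the deepest, while in WT the highest one was. Mitochondrial genes took 1.21%, 1.14% and 1.22% of counts in knockout and 1.16%, 1.18% and 1.15% in WT libraries. Ribosomal RNA genes took 0.112%, 0.0994% and 0.107% of counts in knockout and 0.231%, 0.171% and 0.166% in WT libraries, groups that did not overlap. Of the 10 macrophage markers, 4 had both orders (Csf1r, Cd14, Fcgr1 and Spi1), or 40% against 17.6% of all tested genes, and 30% had the reverse. Csf1r, the receptor for the growth factor of macrophages, stood at 3768, 4518 and 4388 CPM in knockout and at 3814, 3778 and 4600 CPM in WT libraries, high in the same 3 libraries as the enzymes. The 10 proliferation markers had mean log2 deviations of -0.0302, -0.0947 and 0.067 in knockout and 0.0317, 0.173 and -0.147 in WT libraries, with WT replicate 3 the lowest of its group. Of the 6 tested mast cell and basophil markers, 0 had both orders. The reverse of both held for 4 of them (Cpa3, Mcpt8, Prss34 and Gata2), or 66.7% against 17.8% of all tested genes. These 6 markers summed to 20.1, 14.5 and 13.05 CPM in knockout and 22.9, 28.7 and 19.8 CPM in WT libraries. Of the 4 tested erythroid and platelet markers, 0 had both orders and 3 had the reverse (Itga2b, Pf4 and Gp9), or 75%. These 4 markers summed to 87.2, 62.2 and 77.9 CPM in knockout and 118, 108 and 73.8 CPM in WT libraries. The labels give no batch for any library.

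**Figure D3:**
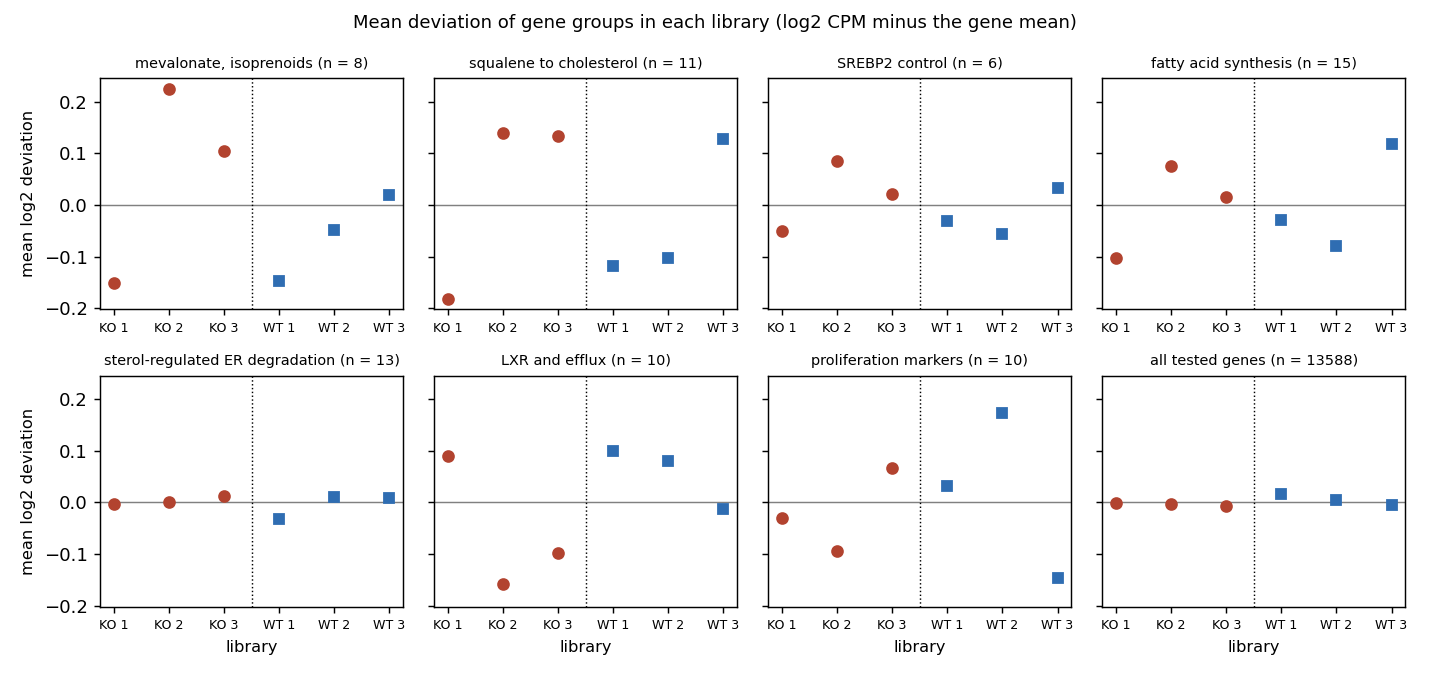
Mean over the genes of a group of log2 (CPM + 0.5) minus each gene's mean over the 6 libraries, plotted for each library (circles, knockout, left; squares, WT, right), with 1 panel per gene group and the number of genes in its title. In the panel of enzymes from squalene to cholesterol, knockout replicate 1 stands at -0.182 and WT replicate 3 at 0.128. In the LXR panel knockout replicate 1 stands at 0.089 and WT replicate 3 at -0.013. All tested genes stay near 0, where TMM scaling brings them by design.

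Against this spread, no gene of the route separated knockout from WT cells in the test. In edgeR's two-sided quasi-likelihood test, 0 of the 28 genes passed at a Benjamini-Hochberg adjusted p under 0.05, while 14 of the 13588 tested genes, or 0.103%, did. DESeq2's Wald test and limma-voom also called 0 of the 28. At an unadjusted p under 0.05 there was 1 of the 28 genes, Fdps, against 5.44% of all tested genes. All knockout libraries lay above all WT libraries for 1 gene, Fdps, against 5.73% of tested genes, and below them for 1 gene, Ggps1, against 5.06%, both shares being close to those of all tested genes. The groups overlapped for the other 26 genes.

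The log2 fold changes of knockout over WT were positive for 22 of the 28 genes and negative for 6, with a median of 0.08, against -0.0009 over all tested genes. As a mean over the 28 genes of the log2 deviations, knockout libraries stood at 0.0361 ± 0.158 and WT libraries at -0.0361 ± 0.0907 (SD, n = 3 each), a difference of 0.0721 that was smaller than the spread within knockout libraries. Each library moved the median by more than 1.5 times when left out. It was 0.181 without knockout replicate 1, 0.0238 without knockout replicate 2, 0.0494 without knockout replicate 3, 0.0435 without WT replicate 1, 0.0411 without WT replicate 2 and 0.162 without WT replicate 3. It stayed positive in these 6 fits, and 0 of the 28 genes passed in any of them.

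Fdps had the smallest p of the 28 genes, with 1.43, 2.00 and 1.45 CPM in knockout against 1.17, 1.15 and 0.914 CPM in WT libraries. These rest on counts of 45, 60 and 38 in knockout and 28, 28 and 23 in WT libraries, and most of the transcript has near-identical copies, as stated above. On the log2 scale knockout was 0.59 above WT (SE 0.25, 95% interval 0.04 to 1.15, edgeR adjusted p = 0.908). For Tm7sf2, with the next smallest p, the fold change was -0.27 on that scale (SE 0.13, 95% interval -0.56 to 0.01, edgeR adjusted p = 0.928), and 12.1% of its exon bases are shared with Vps51 on the same strand.

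The next genes by p had smaller differences. Pmvk stood at 13.6, 16.05 and 17.04 CPM in knockout and at 12.98, 14.5 and 13.8 CPM in WT libraries, a log2 fold change of 0.18 (SE 0.09). Dhcr7 stood at 28.9, 32.3 and 34.7 CPM in knockout and at 36.9, 31.7 and 38.7 CPM in WT libraries, a log2 fold change of -0.17 (SE 0.09). Hsd17b7 had 7.99, 10.95 and 10.04 CPM in knockout and 7.18, 7.03 and 9.74 CPM in WT libraries, a log2 fold change of 0.27 (SE 0.16). In all 3 genes the ranges of the genotypes overlapped, and their adjusted p-values in edgeR's test were 0.943 for Pmvk, 0.945 for Dhcr7 and 0.954 for Hsd17b7.

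Among the regulators, Srebf2 averaged 170 ± 17.5 CPM in knockout and 166 ± 11.6 CPM in WT libraries (SD, n = 3 each), and its log2 fold change was 0.03 with a 95% interval from -0.15 to 0.20. Insig1 averaged 81.5 ± 12.9 CPM in knockout and 73.8 ± 5.84 CPM in WT libraries (SD, n = 3 each), and its log2 fold change was 0.14 with an interval from -0.10 to 0.38. The interval ran from -0.13 to 0.21 for Insig2, from -0.15 to 0.12 for Scap and from -0.13 to 0.08 for Mbtps1.

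The intervals show which sizes of change these libraries leave room for. For 26 of the 28 genes the 95% interval lay within a change of 1.5-fold in either direction. The exceptions were Fdps and Hsd17b7, whose upper bounds were 1.15 and 0.63 on the log2 scale. The missed thresholds do not show that the genotypes were alike.

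**Figure D4:**
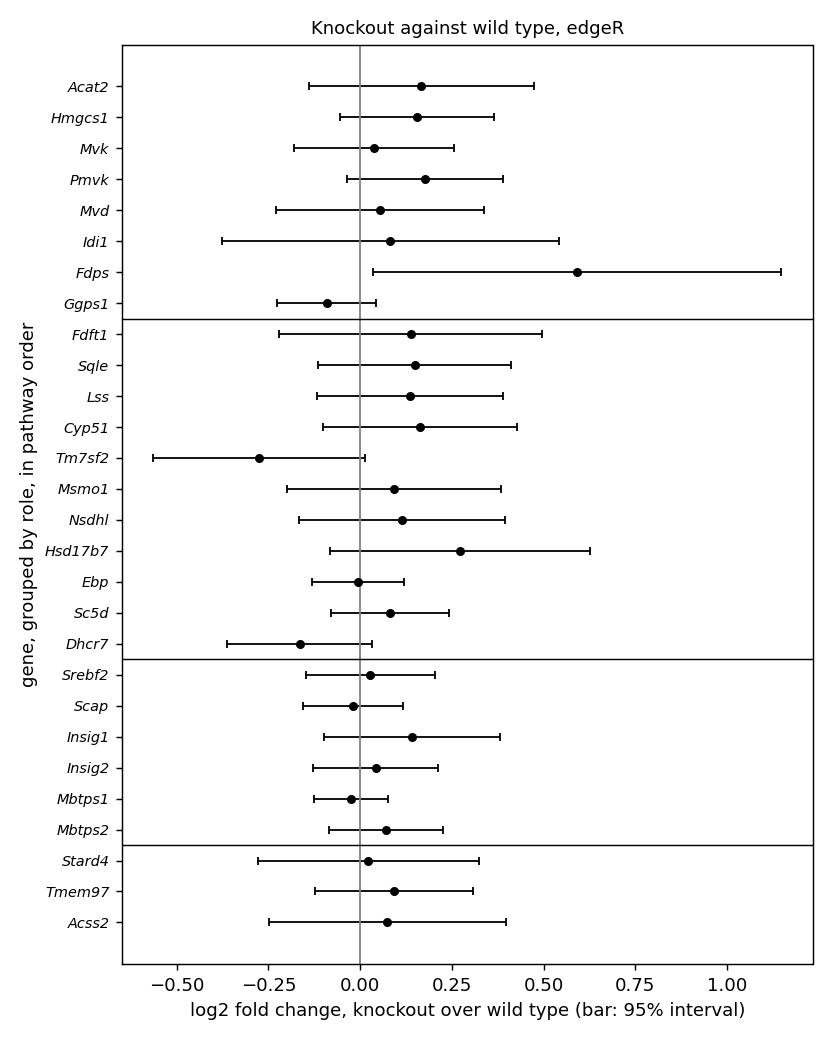
Log2 fold change of knockout over WT for each of the 28 genes (points) with its 95% interval (bars), from edgeR's quasi-likelihood fit, in pathway order by role. Fdps lies farthest to the right at 0.59 and Tm7sf2 farthest to the left at -0.27, and the interval of each gene except Fdps spans 0.

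Genes around the route gave the same picture, with 0 called by edgeR, by DESeq2's Wald test or by limma-voom in any of the lists that follow. Of 10 further genes of sterol metabolism and its control, 7 were tested; 0 had an unadjusted p under 0.05, and the median log2 fold change was 0.05. Srebf1, which encodes the SREBP of fatty acid synthesis and is an LXR target, had the smallest p of these and averaged 71.7 ± 4.01 CPM in knockout and 77.5 ± 4.44 CPM in WT libraries (SD, n = 3 each; log2 fold change -0.11, SE 0.06). Pgrmc1, a haem-binding partner of sterol enzymes, stood at 0.08 (SE 0.05). The list of fatty acid genes had a median of -0.03 over 15 genes, with Acaca, acetyl-CoA carboxylase, at -0.10 (SE 0.05), Elovl5, an elongase, at -0.08 (SE 0.05) and Me1, malic enzyme, at 0.52 (SE 0.40). The sign of that median was not stable: it was 0.0547 without knockout replicate 1, 0.0501 without WT replicate 3 and 0.0211 with library totals as scaling.

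Genes of sterol-regulated degradation in the ER had a median of 0.0084 over 13 genes, with Aup1 at -0.08 (SE 0.04), Erlin1 at 0.08 (SE 0.05) and Usp20 at 0.12 (SE 0.08). The isoprenoid branch had a median of 0.0079 over 17 genes, with the prenyl protease Zmpste24 at -0.09 (SE 0.06), the dolichol enzyme subunit Nus1 at 0.07 (SE 0.05) and Ptar1 at -0.13 (SE 0.10). Neither list had a gene at an unadjusted p under 0.05.

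Sterol esterification and transport had 16 tested genes of 17 and a median of 0.0081. Gramd1a, which carries cholesterol from the plasma membrane to the ER, was the 1 gene of this list at an unadjusted p under 0.05. It stood at 76.8, 81.2 and 79.3 CPM in knockout against 71.6, 72.0 and 73.3 CPM in WT libraries, groups that did not overlap, and edgeR gave 0.13 on the log2 scale (SE 0.04, adjusted p = 0.863). Cav1, the caveolar coat protein, stood at 0.72 (SE 0.33) and Stard3, a late endosomal sterol transporter, at -0.11 (SE 0.07). Of 6 genes of oxysterol synthesis, 3 were tested: Cyp27a1 averaged 101 ± 3.75 CPM in knockout and 103 ± 3.60 CPM in WT libraries (SD, n = 3 each), whereas Ch25h and Sult2b1 lay under 1 CPM in every library.

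LXR and efflux genes had a median log2 fold change of -0.13 over 10 genes, 3 positive and 7 negative. That median was -0.235 without knockout replicate 1, -0.0605 without knockout replicate 2 and -0.194 without WT replicate 3. Mylip, the ligase that removes lipoprotein receptors, was the 1 gene at an unadjusted p under 0.05, at -0.21 (SE 0.09, edgeR adjusted p = 0.908). Apoe, which carries exported cholesterol, stood at 19469, 12139 and 14510 CPM in knockout and at 20271, 19440 and 16867 CPM in WT libraries, or -0.29 on the log2 scale (SE 0.15, edgeR adjusted p = 0.939). Apoe passed in 1 of the alternatives, the fit without a filter on low counts, in which its adjusted p was 0.00486 (edgeR). Abcg1, an exporter to lipoproteins, stood at 267, 192 and 212 CPM in knockout and at 257, 256 and 258 CPM in WT libraries, where the spread lay almost wholly in the knockout group.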

How the data were processed

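RNA sequencing of 6 libraries of mouse bone marrow-derived macrophages was analysed from the deposited raw counts per Ensembl gene, for which the submitters' processing notes name HISAT2, featureCounts and the build GRCm38. The sources used here do not give versions, annotation release or strand setting, so reads of overlapping genes cannot be told apart. Symbols, positions and exon lengths came from GENCODE M21 on the same build: 55240 IDs matched and 181 did not.

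In edgeR 4.0.16 (R 4.3.3), low counts were removed by filterByExpr and the rest scaled by TMM. Knockout was compared with wild type by the quasi-likelihood test with default options and genotype as the only term, over all 13588 tested genes, with Benjamini-Hochberg adjustment and a threshold of 0.05. Standard errors came from the F statistic and the 95% intervals from these. Deviations used log2 (CPM + 0.5). The scripts were tested on simulated data with known changes. Libraries of 1 genotype differed by more than sampling noise in every pair (chi-square over degrees of freedom 3.87 to 19.9).

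Near-identical sequence was searched with BLAST 2.17.0. Alternatives were 3 scalings, 2 filters, DESeq2 1.42.0, limma-voom (limma 3.58.1), the replicate block, leaving out each library and, added after the data had been seen, another transcript length and the scalings and filters for the counts of library orders. The genes and lists were chosen with earlier results of these data known. By the rule for named genes, Tmem175 and Lyz2 served to check the labels, and the members shown in every library were the 10 with the smallest p, Srebf2, Scap, Insig1 and Insig2, the 5 with the highest and 3 with the lowest level per kb, and the 5 with the widest range, besides up to 3 genes of smallest p from each related list; others were chosen after their values had been seen. Some genes of the lists are not reported here.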

Additional observations from a re-analysis of the deposited data

How the results depend on the processing

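The count of 0 of the 28 genes called held in all 14 alternatives (3 scalings, 2 filters, DESeq2, limma-voom, the replicate block and 6 fits without 1 library). The number of genes called over the whole table, 14, was 151 without a filter, 5 under the stricter filter (10 CPM on average), 40 with DESeq2 and between 4 and 12 without 1 library. The median log2 fold change of the 28 genes stayed positive, from 0.0238 to 0.181 without 1 library, and the knockout minus WT difference of their mean level ran from 0.0121 to 0.163. The counts of genes with the 2 library orders (21, 21 and 16) ran from 17 to 23 for knockout replicate 1 lowest, 18 to 21 for WT replicate 3 highest and 14 to 17 for both, the lowest among the 24 genes that a mean of at least 10 CPM kept. Genes near 0 turned sign: with library totals Ebp stood at 0.0376, Scap at 0.0252 and Mbtps1 at 0.0192, without a filter Ebp stood at 0.00384, and with limma-voom Stard4 stood at -9.15e-05. Without 1 library the log2 fold change ran from -0.0424 to 0.116 for Mvk, -0.0407 to 0.183 for Mvd, -0.115 to 0.313 for Idi1, -0.0356 to 0.25 for Msmo1, -0.0522 to 0.0366 for Ebp, -0.0411 to 0.107 for Srebf2, -0.0717 to 0.0273 for Scap, -0.0854 to 0.185 for Stard4, -0.0111 to 0.168 for Tmem97 and -0.0665 to 0.232 for Acss2. The medians of the related lists also moved: without 1 library they ran from -0.0125 to 0.0717 for further sterol genes, -0.0154 to 0.0171 for ER degradation, -0.00115 to 0.0288 for the isoprenoid branch, -0.0063 to 0.0248 for transport, -0.0616 to 0.0547 for fatty acid synthesis and -0.235 to -0.0605 for LXR and efflux. The cause was not tested.

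Correlations of deviations across genes were 0.108, -0.16 and 0.0472 for same-numbered libraries of the genotypes. For differently numbered ones they ran from -0.227 to 0.208. The sources do not state whether the numbers pair wells, and weak correlations of this kind cannot decide it. With the replicate block 17 genes were called, 0 of the 28 among them, and their median was 0.0776.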
